A study of Gallus gallus with 4 samples.

Results

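Cytoplasmic ribosomal proteins are the protein parts of the ribosome, the particle that translates mRNA into protein. The genes studied here were all rows of the expression matrix whose symbol starts with RPL or RPS and a digit, without the RPS6K kinases, together with RPLP0, RPLP1, RPLP2 and RPSA. The rule gave 72 of the 15271 genes, 43 of the large subunit (RPL) and 29 of the small subunit (RPS). RPSA was carried under the symbol RPSAP58, for which RefSeq lists RPSA as a synonym, and 9 RPS6K genes were left out. RPL7L1 and RPS19BP1 met the rule by name and are not core subunits of the mature ribosome, since RPL7L1 is known as a ribosome assembly factor in mammals and RPS19BP1 as a partner of RPS19.

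The large subunit joins amino acids and holds the stalk of RPLP0, RPLP1 and RPLP2, which recruits elongation factors, while the small subunit reads the mRNA. Each ribosome holds about equal numbers of most of these proteins, and their mRNAs are translated together under the control of growth signals. Some members have a closely related copy that can take their place, such as RPL22L1 for RPL22 and RPS27L for RPS27. Resting blood lymphocytes make little protein, and activation and cell division are accompanied by the production of new ribosomes.

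The RNA was read from single blood leukocytes of clinically healthy female laying hens, all 24 weeks of age and with no treatment named in the labels, so the only groups are types of cell. The labels give the hens as Bovans Robust hybrids, whereas the study's methods give them as Dekalb White, another layer line, and which of the names holds cannot be told from the data. Leukocytes were separated from red blood cells on a Ficoll gradient, and thrombocytes, which are nucleated in birds, were depleted with an antibody to CD41/61. Each of the 4 hens gave 1 library by a droplet method that counts the 3′ ends of mRNAs. The matrix held 16936 cells, but library 4 repeated library 3, with 4890 shared barcodes and the same summed ribosomal protein value in 4042 of them, whereas other pairs of libraries shared 1 to 9 barcodes. Library 4 was therefore dropped, which left 3 libraries of 4452, 2697 and 4893 cells, 12042 in all. The deposited values are whole-number scores already corrected for depth, with totals of 1577 to 3004 per cell, so sequencing depth cannot be read from them.

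Cells were placed in groups by lineage markers that did not include any ribosomal protein gene, and every group is called "-like" for that reason. The largest were αβ T-like (2991 cells), γδ T-like (2246), B-like (1971) and monocyte-like cells (1545). Smaller ones were other T-like (817), cytolytic-like (716), thrombocyte-like (279), SOX5 B-like (213, B-like cells with a SOX5 value of 2 or more), eosinophil-like (178), red blood cell-like (95) and proliferating-like cells (64, in 18, 14 and 32 cells per library). The 921 ungrouped cells made up 7.65% of the total. Proliferating-like cells were of mixed lineage: MKI67 was detected in 89.1% of them, the T cell genes BCL11B and CD3D in 67.2% and 59.4%, and the cytolytic gene GNLY in 37.5%. Eosinophil-like cells carried DACH1 in 91.6%, MCTP2 in 90.4% and IL5RA in 61.8% of cells, but also BCL11B in 23.0% and CSF3R in 28.7%. Monocyte-like cells carried heterophil markers (MMP9, IL1R2, BHLHE40, NR4A3) at a summed 25.5 to 60.4 per 10000 values, against 0.321 to 1.01 in αβ T-like cells, so they cannot be taken as monocytes alone.

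The members were 0.471% of the genes and held 3.87% of all summed values, and a cell had a median of 37 members detected. According to RefSeq (build GRCg7b) they were spread over 28 chromosomes, with 10 on chromosome 1 and 4 on chromosome Z. Their genes were short, with a median span of 3134 bases against 15393 bases for the other genes. A small nucleolar RNA lay within the span of 23 members, and 12 overlapped another coding or long non-coding gene, whose reads may not be fully separable from theirs.

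The ribosomal protein share of a cell, the percent of its summed values in the 72 members, differed most between proliferating-like and eosinophil-like or cytolytic-like cells. The median cell of the proliferating-like group had 6.02%, 11.98% and 4.01% in libraries 1, 2 and 3, against 3.20%, 1.77% and 1.89% in αβ T-like cells, the group used as the common comparator. With 2 markers required, every proliferating-like library lay above every αβ T-like one. The libraries of the proliferating-like group differed from each other by more than any αβ T-like pair did, however. Red blood cell-like cells had 3.63%, 4.25% and 5.14%, and B-like cells had 3.86%, 4.45% and 3.62%, which also lay above all αβ T-like libraries.

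Cytolytic-like cells had 1.05%, 1.73% and 1.35%, and eosinophil-like cells had 1.34%, 1.68% and 1.12%, below all αβ T-like libraries. γδ T-like cells had 3.71%, 2.90% and 3.55%, a range that overlapped that of αβ T-like cells, although γδ T-like cells were higher in each of the 3 hens. Thrombocyte-like cells (1.37%, 1.97% and 2.44%) and other T-like cells (1.88%, 1.34% and 1.42%) overlapped it as well, and other T-like cells were lower than αβ T-like cells in each of the 3 hens. Monocyte-like cells had 1.68%, 4.94% and 3.82% and SOX5 B-like cells 1.59%, 4.39% and 3.23%. In both of these groups library 1 was the lowest, whereas among αβ T-like cells library 1 was the highest. Averaged over libraries, the order was proliferating-like (7.34% ± 4.14, SD, n = 3), red blood cell-like (4.34% ± 0.759), B-like (3.98% ± 0.428), monocyte-like (3.48% ± 1.66), γδ T-like (3.39% ± 0.427), SOX5 B-like (3.07% ± 1.41), αβ T-like (2.29% ± 0.792), thrombocyte-like (1.93% ± 0.535), other T-like (1.55% ± 0.295) and cytolytic-like and eosinophil-like cells (each 1.38%, ± 0.339 and ± 0.282). Neighbours in this order overlapped in their libraries. The order is that of the median cell and depends on the measure. By the share of the summed values, cytolytic-like cells had 2.57%, 3.52% and 2.90%, against 4.08%, 2.52% and 3.20% in αβ T-like cells, and the ranges overlapped. Red blood cell-like library 1, at 4.03%, also lay below αβ T-like library 1 on this measure. With at least 3 markers, αβ T-like cells had median shares of 4.28%, 2.39% and 2.91%. Their library 1 then exceeded proliferating-like library 3 (4.25%), B-like libraries 1 and 3 (3.95% and 3.73%) and red blood cell-like library 1 (3.63%). Cytolytic-like and eosinophil-like cells still lay below all αβ T-like libraries. No p-value is given for these shares, since 3 libraries against 3 cannot go below p = 0.1 in an exact permutation test and pairing by hen allows no smaller value.

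**Figure D1:**
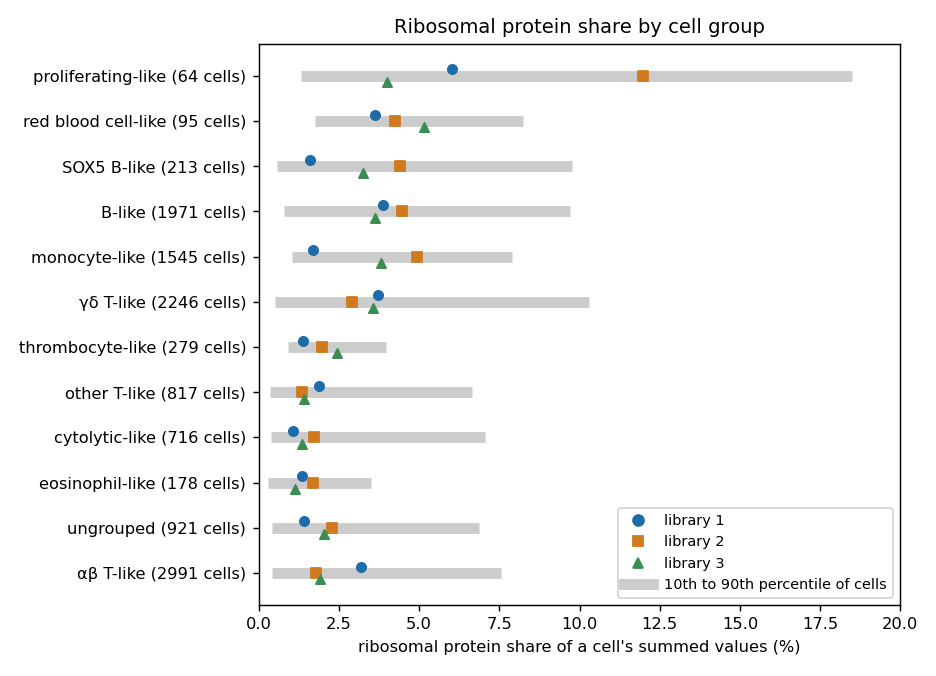
Ribosomal protein share of a cell's summed values, in percent, for each group of cells. Points are the median cell of each of the 3 libraries and grey bars run from the 10th to the 90th percentile of all cells of the group. Proliferating-like medians lie at 4.01% to 11.98% and αβ T-like medians at 1.77% to 3.20%, and the αβ T-like bar runs from 0.405% to 7.55%.

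The cells of a lymphocyte group spread widely. The 10th and 90th percentiles of αβ T-like cells were 0.405% and 7.55%, and 29.4% of these cells had a share under 1%. The corresponding percentiles were 0.775% and 9.71% in B-like cells, 0.510% and 10.3% in γδ T-like cells and 0.388% and 7.04% in cytolytic-like cells. By the ratio of the 90th to the 10th percentile, the ranges were narrowest in thrombocyte-like cells (0.903% to 3.97%, a ratio of 4.40) and red blood cell-like cells (1.74% to 8.24%, a ratio of 4.74). Eosinophil-like cells lay between 0.301% and 3.51%. Large and small subunit genes moved together from cell to cell, with Spearman correlations of 0.93 to 0.97 between the RPL and the RPS share within each library of B-like, γδ T-like, αβ T-like and monocyte-like cells. These describe cells that share a library and a denominator. The ratio of the RPL to the RPS share was 1.29 to 1.56 in all groups other than red blood cell-like cells, where it was 1.87 ± 0.267.

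B-like, γδ T-like and αβ T-like cells with more genes detected had a higher share, and monocyte-like cells did not. The cells of each group and library were cut into 4 equal bins by genes per cell. From the lowest to the highest bin, the median share of αβ T-like cells went through 1.12%, 2.24%, 4.08% and 4.99% in library 1, 1.07%, 1.55%, 1.60% and 3.05% in library 2, and 1.07%, 1.38%, 2.28% and 3.70% in library 3. γδ T-like cells had 1.58%, 1.83% and 1.10% in the lowest bin of libraries 1, 2 and 3, and 5.43%, 3.94% and 7.98% in the highest. Monocyte-like cells went through 4.63%, 6.21%, 5.89% and 2.76% in library 2 and 3.75%, 5.03%, 4.71% and 2.10% in library 3, so the highest bin had the lowest share, and library 1 stayed between 1.50% and 1.96%. As a description across cells, the Spearman correlation of the share with genes per cell was 0.31 to 0.54 in the 9 lymphocyte profiles of B-like, γδ T-like and αβ T-like cells and 0.06, -0.23 and -0.23 in monocyte-like cells. Proliferating-like cells had -0.75, -0.20 and -0.20, red blood cell-like cells -0.42, 0.10 and -0.49, and thrombocyte-like cells 0.07, 0.04 and 0.02. The correlation was positive in every library of SOX5 B-like, other T-like, cytolytic-like and eosinophil-like cells.

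In B-like, γδ T-like, αβ T-like and monocyte-like cells the share was lower where the mitochondrial share was higher. αβ T-like cells with under 5% of values in mitochondrial genes had median ribosomal protein shares of 4.80%, 2.07% and 3.50% in libraries 1, 2 and 3, and those with 10% to 20% had 1.24%, 1.38% and 1.25%. Monocyte-like cells of libraries 2 and 3 had 6.95% and 5.25% at a mitochondrial share of 5% to 10%, and 1.47% and 1.94% above 20%. The Spearman correlation was -0.49, -0.58 and -0.44 in monocyte-like cells, and with the mitochondrial values taken out of the denominator it was -0.44, -0.53 and -0.38. In B-like, γδ T-like and αβ T-like cells the correlation was -0.14 to -0.36. It was not negative in every group, with 0.34 and 0.23 in libraries 1 and 2 of thrombocyte-like cells and 0.04 in library 2 of red blood cell-like cells. The 2 shares are parts of 1 total, and genes per cell, mitochondrial share and cell state cannot be told apart here.

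**Figure D2:**
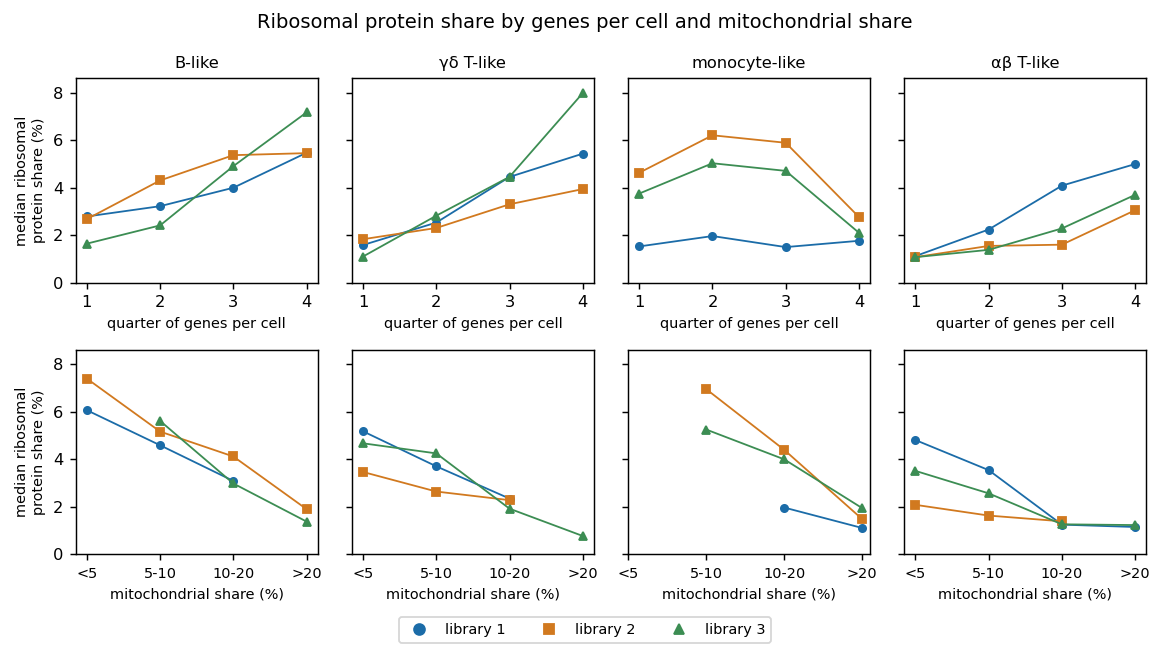
Median ribosomal protein share, in percent, of cells binned by genes per cell within each group and library (top, lowest to highest bin) and by mitochondrial share in percent (bottom), for B-like, γδ T-like, monocyte-like and αβ T-like cells. Lines join the bins of 1 library, and bins under 20 cells are not drawn. The share climbs with genes per cell in the lymphocyte panels and drops to 2.76% and 2.10% in the highest monocyte-like bin of libraries 2 and 3.

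To compare single members, values were summed over the cells of each group and library and set per 10000 of all values. These are 3′ tag values that do not grow with transcript length. In αβ T-like cells the median member other than the 4 lowest had 4.56 per 10000, and the highest were RPS27, a zinc finger protein of the small subunit, at 10.7, RPL21 and RPLP2. RPL21 was the highest in B-like cells at 16.4 ± 1.70 (SD, n = 3), and RPLP1, a stalk protein, led in thrombocyte-like, eosinophil-like and proliferating-like cells. The lowest members were always among RPS19BP1, RPS27L, RPL22L1 and RPL7L1. Across the 72 members, the levels of γδ T-like and αβ T-like cells ranked alike (Spearman correlation of 0.98, a description over genes), with 0.94 for B-like, 0.93 for cytolytic-like, 0.82 for monocyte-like and eosinophil-like, 0.80 for thrombocyte-like, 0.75 for proliferating-like and 0.74 for red blood cell-like cells.

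Nearly the whole family was higher in proliferating-like than in αβ T-like cells. Of the 72 members, 69 rose and none fell (limma, Benjamini-Hochberg adjusted p under 0.05 over 10002 genes), where 12.9% of all genes tested rose and 21.9% fell. The members' median log2 fold change was 1.45, against -0.30 for all genes tested. The highest was RPL22L1, the copy of RPL22, with 4.20, 1.98 and 2.74 per 10000 in proliferating-like cells, against 0.392, 0.182 and 0.415 in αβ T-like cells. The groups did not overlap, and the log2 fold change was 2.82 (SE 0.41, adjusted p = 1.99e-06 by limma). RPL22 itself had 11.1, 11.9 and 7.60 per 10000 in proliferating-like cells, against 5.03, 3.70 and 4.11 in αβ T-like cells, a log2 fold change of 1.22.

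RPS2, at the mRNA entry side of the small subunit, had 25.4, 20.3 and 10.3 per 10000 in proliferating-like cells, against 4.28, 2.28 and 3.35 in αβ T-like cells. Its log2 fold change was 2.41 (SE 0.39, adjusted p = 1.01e-05 by limma), and all proliferating-like libraries lay above the αβ T-like ones. RPL6, of the large subunit, had 27.2, 26.6 and 15.0 in proliferating-like cells, against 5.52, 4.03 and 4.91 in αβ T-like cells (log2 fold change 2.18). RPSAP58, the small subunit protein also known as a laminin receptor, and RPL7A, of the large subunit, followed with 2.13 and 2.10. The members not called were RPS29, RPL7L1 and RPS19BP1, with RPS29 at 9.50, 12.2 and 4.99 in proliferating-like cells, against 6.55, 4.93 and 4.61 in αβ T-like cells. Library 3 was the lowest proliferating-like library for RPL22, RPS2, RPL6 and RPS29, and library 2 for RPL22L1. Markers of cytolytic cells moved with this comparison, at a summed 16.7 to 46.8 per 10000 in proliferating-like cells (4 of 4 markers detected in every library) and 1.08 to 1.71 in αβ T-like cells. B cell markers had 4.52 to 10.4 in proliferating-like cells and 0.624 to 0.714 in αβ T-like cells, with 1 of the 6 at 0 in a library of either group. The gate allowed an αβ T-like cell at most 1 cytolytic and 1 B cell marker, so the low sums there are partly set in advance. Proliferating-like cells had no such limit. The median mitochondrial share was 15.8% ± 1.93 in proliferating-like cells and 7.30% ± 1.42 in αβ T-like cells (SD, n = 3 each). The part of these in the result was not tested.

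B-like cells had higher values of most members than αβ T-like cells, but few passed the test. Of 72 members, 3 rose and none fell, where 5.02% of all genes tested rose and 4.93% fell, so the share of members called was no higher than the background. The median log2 fold change was 0.57 for the members and -0.04 for all genes, 68 members were above 0, and 25 had an unadjusted p under 0.05. Members rise and fall together, so these are not counts of separate observations, and the shares over all genes are not given here. Among the members called, RPL39L had 11.3, 9.19 and 11.0 per 10000 in B-like cells, against 7.83, 3.66 and 5.59 in αβ T-like cells, with no overlap (log2 fold change 0.93, SE 0.27, adjusted p = 0.0198 by limma). RPS23, of the decoding centre, had 6.46, 6.25 and 6.96 in B-like cells, against 4.71, 2.69 and 3.48 in αβ T-like cells (0.87, adjusted p = 0.0344). No member was called without library 2 or without library 3. In a fit of these 2 groups alone, chosen after seeing the data, 51 members rose and 1 fell, where 16.2% of all genes rose and 18.9% fell.

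γδ T-like cells showed the same lean with no call. Of the 72 members, 70 had a positive log2 fold change against αβ T-like cells and 51 were higher in γδ T-like cells in all 3 libraries. None passed limma at an adjusted p of 0.05 (1.94% of all genes rose and 1.28% fell), 2 had an unadjusted p under 0.05, and 2 passed in the fit of these 2 groups alone. Members rise and fall together, so the 70 and the 51 are not counts of separate observations. Their shares over all genes are not given here. The median was 0.41 for the members and -0.03 for all genes, and the median SE of a member was 0.32. In library 2, for example, RPL39L had 6.80 per 10000 in γδ T-like cells, against 3.66 in αβ T-like cells.

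Cytolytic-like cells did not differ detectably from αβ T-like cells in any member. None passed limma (2.94% of all genes rose and 3.29% fell), none had an unadjusted p under 0.05, and 1 fell in the fit of these 2 groups alone. The median was -0.12 for the members and -0.07 for all genes, and it was positive, at 0.13, without library 1. The median SE of a member was 0.32.

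In monocyte-like cells, 4 members rose and 1 fell against αβ T-like cells, where 16.8% of all genes rose and 18.9% fell, and the members' shares were 5.56% and 1.39%. The median was 0.13 for the members and -0.25 for all genes. RPL39L had 8.58, 13.3 and 12.6 per 10000 in monocyte-like cells, against 7.83, 3.66 and 5.59 in αβ T-like cells, with no overlap (log2 fold change 1.04, SE 0.27, adjusted p = 0.00276 by limma). RPLP0, the base of the stalk, had 6.28, 10.5 and 8.89 in monocyte-like cells, against 6.09, 3.84 and 4.32 in αβ T-like cells (0.83, adjusted p = 0.0155). RPL4, of the large subunit, rose by 0.95 (adjusted p = 0.0270). RPL37A, a small zinc finger protein of the large subunit, rose by 0.92 but in library 1 had 6.98 in monocyte-like cells, against 7.70 in αβ T-like cells. RPS28, near the mRNA exit, had 3.48, 7.47 and 5.67 in monocyte-like cells, against 11.2, 7.83 and 8.09 in αβ T-like cells (log2 fold change -0.74, adjusted p = 0.0395). Without library 3 no member was called. Without library 1 and without library 2, 14 and 6 were, with no share of all genes beside these counts. The calls of RPL4 and RPLP0 were also lost without library 2 (adjusted p of 0.315 and 0.285 by limma), with at least 3 markers and with no marker of another lineage. The RPL39L call was lost without library 2 and with no marker of another lineage, and that of RPS28 without library 1, with no filter on low values, with no marker of another lineage, with cells of at most 20% mitochondrial values and under other choices of total. The median mitochondrial share was 14.5% ± 1.83 in monocyte-like cells and 7.30% ± 1.42 in αβ T-like cells, and its part was not tested. The members' median was -0.33 without library 2. Scaled by the median ratio of the genes, a setting chosen after seeing the data that moved the median of all genes to 0.18, 35 members rose and none fell. The share of all genes called under this setting is not given here, so the count is not read as a result about the members.

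Thrombocyte-like and eosinophil-like cells had lower values of most of the family. Of 72 members, 41 fell in thrombocyte-like cells and 1 rose, where 29.9% of all genes fell and 14.3% rose, with a median of -0.79 for the members and -0.50 for all genes. In eosinophil-like cells 54 fell and none rose, where 30.7% of all genes fell and 11.4% rose, with a median of -1.13 for the members and -0.61 for all genes. Median genes per cell were also low in these groups, at 617 and 627, against 1140 in αβ T-like cells. Heterophil markers had a summed 5.26 to 12.6 per 10000 in thrombocyte-like cells, against 0.321 to 1.01 in αβ T-like cells, with up to 2 of the 4 at 0 in a thrombocyte-like library. The part of these in the result was not tested. Without library 1, 9 members were called in thrombocyte-like cells, against 41 without library 2 and 26 without library 3. In eosinophil-like cells the counts were 36, 56 and 32. The shares of all genes called in these fits are not given here, so the counts are not read as results about the members. Scaled by the median ratio, 11 members fell and 3 rose in thrombocyte-like cells, with no share of all genes beside these counts.

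RPL5, which carries the 5S RNA into the large subunit, had the lowest log2 fold change in both groups on the scale of log2(value + 0.1). It had 0.382, 0.342 and 1.28 per 10000 in eosinophil-like cells and 0.946, 0.795 and 1.28 in thrombocyte-like cells, against 4.11, 3.36 and 3.35 in αβ T-like cells. Neither group overlapped αβ T-like cells, and the log2 fold changes were -2.47 (SE 0.35, adjusted p = 9.65e-07 by limma) in eosinophil-like and -1.76 (SE 0.35, adjusted p = 0.000135) in thrombocyte-like cells. RPL12, of the stalk base, had 0.382, 0.547 and 0.511 in eosinophil-like cells, against 3.54, 2.14 and 3.04 in αβ T-like cells (-2.36). Its mean of 0.480 in eosinophil-like cells, against 2.91 in αβ T-like cells, is lower in proportion than that of RPL5, with 0.667 against 3.61. RPL9 and RPS13, of the large and the small subunit, followed in eosinophil-like cells with -2.34 and -2.30. In thrombocyte-like cells, RPL30, RPL3 (beside the peptidyl transferase centre), RPS27A (made as a fusion with ubiquitin) and RPS13 fell by 1.64, 1.45, 1.44 and 1.44 on the log2 scale. RPS19BP1 was listed at 0 in all 3 eosinophil-like libraries and in libraries 1 and 2 of the thrombocyte-like group, and RPL7L1 in libraries 1 and 3 of the eosinophil-like group, so no fold is given for them.

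**Figure D3:**
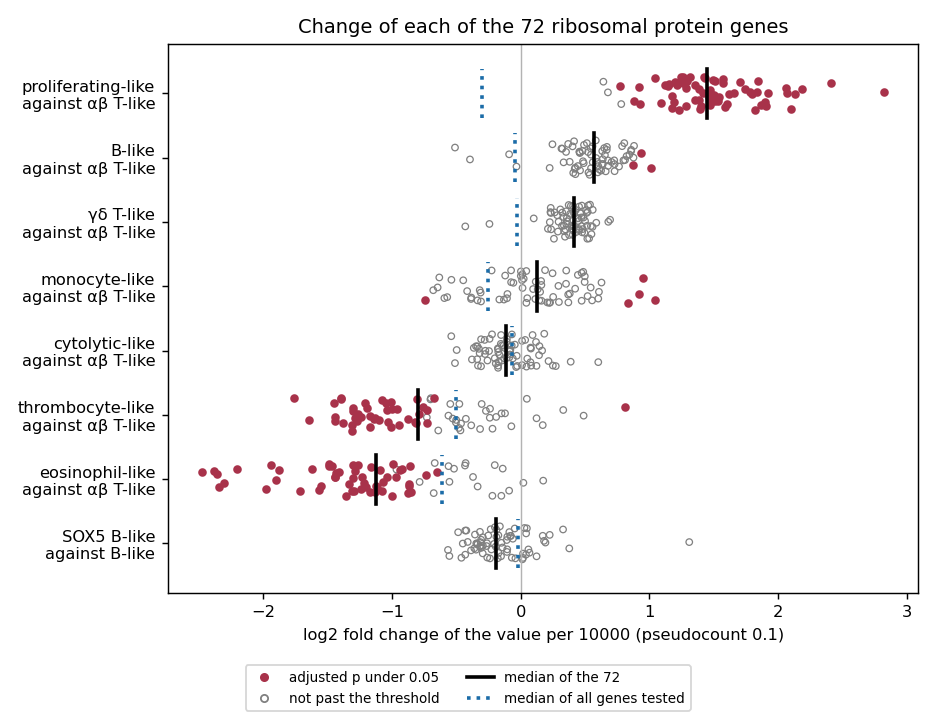
Log2 fold change of each of the 72 members, from values per 10000 with a pseudocount of 0.1, in 8 comparisons of cell groups. Filled points passed an adjusted p of 0.05 in limma, black bars are the median of the 72 and dotted bars the median of all genes tested. The proliferating-like points all lie right of 0 with 69 filled, and in eosinophil-like cells 54 filled points lie left of it.

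Among B cells, SOX5 B-like cells did not differ from B-like cells in any member at an adjusted p of 0.05 in limma (2.37% of all genes rose and 1.83% fell), and 1 member had an unadjusted p under 0.05. That member was RPL22L1, with 1.25, 0.948 and 1.76 per 10000 in SOX5 B-like cells, against 0.426, 0.370 and 0.598 in B-like cells. The ranges did not overlap, and the log2 fold change was 1.31 (SE 0.41, adjusted p = 0.0633). With each hen as a block the adjusted p was 0.0314, with a pseudocount of 1 it was 0.00898, and in a fit of these 2 groups alone it was 0.0117. Over all the settings tried it lay between 0.00898 and 0.369, the highest value being that without library 3. RPL22 had 4.67, 7.05 and 5.94 in SOX5 B-like cells, against 6.06, 6.28 and 6.39 in B-like cells, and overlapped. The median was -0.19 for the members and -0.02 for all genes.

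The members were then set against the family's own sum, so that a member departs where it moves apart from that sum. Abundant members weigh most in the sum, so it need not match the typical member. On this scale the members' median was -0.30 in eosinophil-like and -0.20 in thrombocyte-like cells, with 49 and 45 of the 72 below 0. It was -0.07 in monocyte-like and -0.001 in proliferating-like cells. A member near the middle of the family can therefore read as lower. Every other gene is divided by the same sum, so the background of all genes moves with it. The median of all genes on this scale was -1.07 in eosinophil-like, -0.69 in thrombocyte-like, -0.60 in monocyte-like and -2.33 in proliferating-like cells. Members are held near 0 by the scaling, so the shares of all genes called are no like yardstick for departures. Lymphocyte groups had no departures called: none of 72 members passed limma in B-like, γδ T-like or cytolytic-like cells against αβ T-like cells, nor in SOX5 B-like against B-like cells. The largest log2 difference in SOX5 B-like cells, 1.65 for RPL22L1, was thus not called either. Members with an unadjusted p under 0.05 numbered 2, 0, 1 and 2, and in fits of only the groups compared 3 B-like and 1 γδ T-like departures were called. On this scale 1.91% of all genes were higher and 3.61% lower in B-like cells, 0.521% and 0.489% in γδ T-like cells, 1.14% and 0.910% in cytolytic-like cells and 0.616% and 0.465% in SOX5 B-like cells.

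Thrombocyte-like cells had 8 members higher and 12 lower than the family's sum, where 12.2% of all genes were higher and 25.6% lower. The members' shares were 11.1% and 16.7%, no higher than this background, which moved with the family's sum. RPL38, a small protein of the large subunit, had 202, 212 and 184 per 10000 of the ribosomal protein sum in thrombocyte-like cells, against 99.0, 82.8 and 92.2 in αβ T-like cells. The ranges lay apart and the log2 difference was 1.13 (SE 0.30, adjusted p = 0.00382 by limma), with the call lost without library 3. RPL39L followed with 0.96, RPL23 of the large subunit with 0.80 and RPS15 with 0.75. RPL5 was lower by -1.24 (adjusted p = 0.0147), RPL3 by -0.93 and RPS27A by -0.87, and of these RPL5 lost the call without library 1 or 2, and RPL3 without any 1 library.

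Eosinophil-like cells had 9 members higher and 17 lower than the family's sum, where 11.8% of all genes were higher and 28.0% lower. The members' shares were 12.5% and 23.6%, near or below this background, which moved with the family's sum. RPS14, of the small subunit platform, had 293, 326 and 429 per 10000 of the family in eosinophil-like cells, against 174, 135 and 177 in αβ T-like cells (log2 difference 1.10, SE 0.23, adjusted p = 0.000462 by limma). RPL37A had 376, 333 and 334 in eosinophil-like cells, against 189, 172 and 181 in αβ T-like cells (0.94), and RPLP1 had 454, 446 and 463, against 255, 275 and 263 (0.78). None of the 3 overlapped. RPS20 of the small subunit (0.70) was also higher. RPL12 had 23.0, 28.0 and 34.3 in eosinophil-like cells, against 86.8, 84.9 and 95.2 in αβ T-like cells (-1.66, adjusted p = 4.28e-05), and RPS13 (-1.84), RPL5 (-1.78), RPL9 (-1.62) and RPL8 (-1.39) were lower too. The RPS13 call was lost without library 1 and that of RPL5 without library 2. Both were also lost in the fit of these 2 groups alone (adjusted p of 0.181 and 0.0808 by limma). These cells also carried B cell markers at a summed 2.55 to 4.51 per 10000, against 0.624 to 0.714 in αβ T-like cells, with up to 4 of the 6 at 0 in a library. Monocyte markers had at least 2.67 in every eosinophil-like library, against 0.104 to 0.248 in αβ T-like cells, and up to 4 of the 6 were at 0 in an eosinophil-like library. Thrombocyte markers had 1.79 to 2.26 in eosinophil-like cells, against 0.0694 to 0.175 in αβ T-like cells, and up to 3 of the 4 were at 0. The part of these in the results of eosinophil-like cells was not tested.

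Monocyte-like cells had 3 members higher and 7 lower, where 9.66% of all genes were higher and 11.5% lower. The members' shares were 4.17% and 9.72%, no higher than this background, which moved with the family's sum. RPL39L had 360, 260 and 313 per 10000 of the family in monocyte-like cells, against 192, 145 and 175 in αβ T-like cells (log2 difference 0.86, SE 0.20, adjusted p = 0.00199 by limma), and RPL37A had 292, 308 and 305, against 189, 172 and 181 (0.74). RPS28 had 146, 146 and 141 in monocyte-like cells, against 275, 310 and 253 in αβ T-like cells (-0.95), so the 3 monocyte-like libraries lay close together although their family sums did not. RPL9 (-0.90), RPS29 (-0.85), RPL14 (-0.80) and RPL11, which binds the 5S RNA with RPL5 (-0.78), were lower. The calls of RPLP0 and RPS29 were lost without any 1 of the libraries, those of RPL9, RPL14 and RPL11 without library 1 or library 3 (adjusted p of 0.0506 to 0.270 by limma), and those of RPL37A, RPL14, RPL11, RPLP0 and RPS29 in the fit of these 2 groups alone, and those of RPL39L and RPS28 were kept.

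Proliferating-like cells had 3 members higher and 4 lower, where 2.27% of all genes were higher and 41.9% lower. The members' shares were 4.17% and 5.56%. The largest log2 difference of a member, 1.70 for RPL22L1, was not called. RPS2 had 239, 194 and 158 per 10000 of the family in proliferating-like cells, against 105, 90.5 and 105 in αβ T-like cells (log2 difference 0.96), RPL6 had 256, 253 and 229, against 135, 160 and 154 (0.72), and RPLP0 was higher by 0.59. RPS29 (-0.84), RPS28 (-0.71), RPS27 (-0.60) and RPL29 (-0.55) were lower. Without library 1, 4 departures were called, but RPL6, RPLP0, RPS29 and RPS27 were not among them. Without library 2 there was 1, RPL6. Without library 3 there were 3, and RPS2, RPLP0, RPS29 and RPL29 were not among them. RPL39L is listed by RefSeq with RPL39 as a synonym (chromosome 4, 16458697 to 16461069), so the matrix row may stand for the core exit-tunnel protein and not for the testis copy known in mammals.

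**Figure D4:**
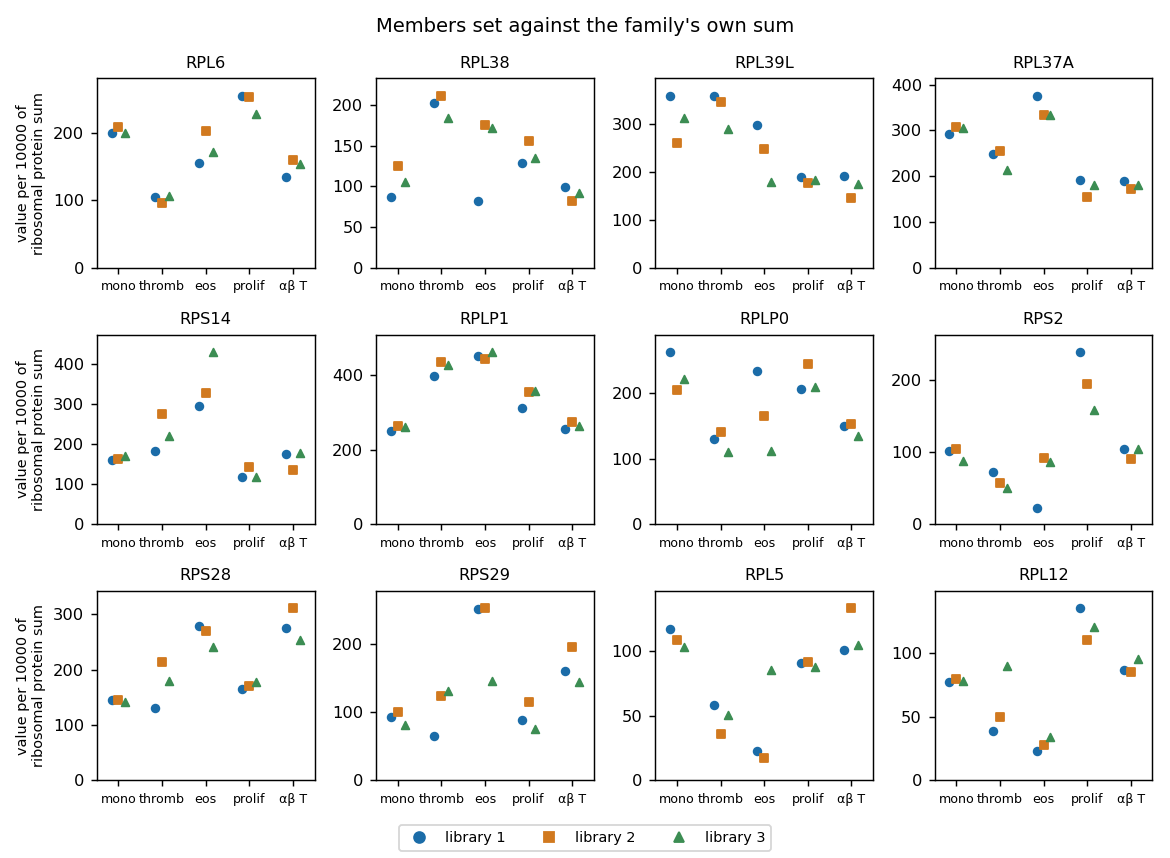
Values of 12 members per 10000 of the summed ribosomal protein values, by library, in monocyte-like, eosinophil-like, thrombocyte-like, proliferating-like and αβ T-like cells. Each panel has its own linear axis from 0. RPL38 stands at 184 to 212 in thrombocyte-like cells and at 82.8 to 99.0 in αβ T-like cells, and RPS28 at 141 to 146 in monocyte-like and 253 to 310 in αβ T-like cells.

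RPL23A, RPS27L and RPS29 had their highest mean level in red blood cell-like cells, and all other members in proliferating-like cells. Red blood cell-like values were picked out after they were seen, so no test is given. The group held 38, 26 and 31 cells in libraries 1, 2 and 3, and its gate set no limit on markers of other lineages. T cell markers had a summed 11.7 to 15.3 per 10000 there. B cell markers had 0.848 to 19.9, with up to 4 of the 6 at 0 in a library. Heterophil markers had 0.636 to 10.2, with up to 2 of the 4 at 0. The part of these in the values was not tested. RPL23A, at the exit of the peptide tunnel, had 43.3, 38.6 and 46.9 per 10000 in red blood cell-like cells, against 5.80, 3.05 and 4.78 in αβ T-like cells, and no library of any other group went above 14.1. Its gene lies on chromosome 19 from 6286719 to 6289117 (GRCg7b), with 2 small nucleolar RNA genes inside. RPS27L, the copy of RPS27 known as a p53 target in mammals, had 1.61, 4.24 and 3.25 in red blood cell-like cells, against 0.309, 0.208 and 0.342 in αβ T-like cells. RPL22L1 had 1.75, 0.848 and 0.856 in red blood cell-like cells, against 0.392, 0.182 and 0.415 in αβ T-like cells, and eosinophil-like cells had 0.306 and 0.0684 and, in library 3, were listed at 0. The RPL22L1 gene lies on chromosome 9 from 19425952 to 19427972.

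**Figure D5:**
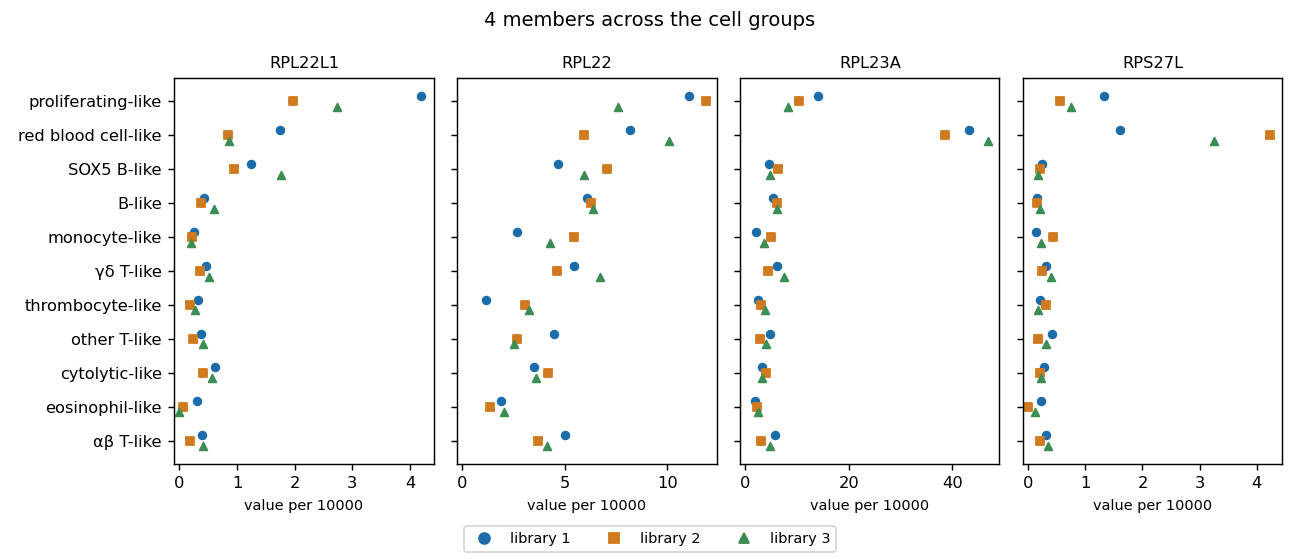
RPL22L1, RPL22, RPL23A and RPS27L in values per 10000, by cell group and library, each panel with its own linear axis. RPL22L1 is highest in proliferating-like cells (1.98 to 4.20) and next in SOX5 B-like and red blood cell-like cells, and RPL23A stands at 38.6 to 46.9 in red blood cell-like cells.

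To describe which genes went with the RPL share from cell to cell, the cells of each group and library were split at its median. The RPL genes were then removed from the totals, and RPS genes and all others were tested between RPL-high and RPL-low cells. The split was made on values of the same cells, and since the RPL and RPS shares of these cells correlated by 0.93 to 0.97, the RPS calls restate that correlation gene by gene and are no independent evidence. In αβ T-like cells the median RPS share of the remaining values was 2.59%, 1.45% and 1.73% in RPL-high cells, against 0.358%, 0.364% and 0.336% in RPL-low cells. In monocyte-like cells it was 1.39%, 3.08% and 2.45% in RPL-high cells, against 0.411%, 1.19% and 0.897% in RPL-low cells. Of the 29 RPS genes, 28 rose in αβ T-like, 28 in γδ T-like, 27 in B-like and 27 in monocyte-like RPL-high cells, and none fell. Of all genes tested, 9.05%, 12.5%, 10.2% and 3.31% rose in these comparisons, and 0.548%, 1.53%, 0.845% and 3.23% fell.

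The RPS medians were 2.33 in αβ T-like, 2.03 in γδ T-like, 1.90 in B-like cells and 1.61 in the monocyte-like group, against 0.13, 0.15, 0.13 and -0.14 for all genes. RPS15A, of the small subunit, had the largest log2 fold change in all 4, at 2.86, 2.78, 2.48 and 2.12 in the same order (SE 0.30 each). RPS19BP1 was called in none of them, and RPS27L in neither monocyte-like nor B-like cells. Without library 3, 10 RPS genes were called in B-like cells and 5 in cells of the monocyte-like group, with no share of all genes beside these counts. Mitochondrial shares were lower in RPL-high than in RPL-low cells in every group and library, for example 6.07%, 5.47% and 7.55% in RPL-high αβ T-like cells, against 8.70%, 6.40% and 10.4% in RPL-low ones. The γδ T cell markers had a summed 0 to 0.126 per 10000 in RPL-high αβ T-like cells, against 0.367 to 0.546 in RPL-low ones, with up to 5 of the 5 at 0 in an RPL-high library and up to 4 in an RPL-low one. The gate itself kept TARP, LOC121110951, SOX13 and KK34 out of αβ T-like cells. Zeros of these genes were therefore set in advance, and the sum rests on the remaining marker. Monocyte markers had 46.6 to 70.8 in RPL-high monocyte-like cells, against 32.2 to 49.4 in RPL-low ones, and heterophil markers 20.9 to 55.8, against 30.8 to 66.5. The part of these in the result was not tested. Within 10% of the dividing value lay 7.09% of αβ T-like, 7.97% of γδ T-like, 9.79% of B-like and 11.7% of monocyte-like cells.

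Most of the listed genes that work with the ribosome in translation moved with the RPS genes. The list was chosen with earlier results of these data known. The study itself reports high TPT1 beside ribosomal proteins in some of its T cell clusters. The counts are therefore no independent evidence. Of 18 translation partners (elongation and initiation factors and ribosome-bound proteins), 17 rose in RPL-high αβ T-like, γδ T-like and B-like cells and 13 in monocyte-like cells, with medians of 1.59, 1.42, 1.40 and 1.15. TPT1, a translationally controlled protein, had a log2 fold change of 2.53 (SE 0.36) in αβ T-like cells, 2.44 in γδ T-like, 2.26 in B-like cells and 1.90 in those of the monocyte-like group. EEF1B2, an exchange factor for elongation factor 1, and RACK1, which sits on the small subunit, rose by 2.41 and 2.36 in αβ T-like cells. Of the ribosome biogenesis genes, 5 of 19 rose in αβ T-like, 4 of 18 in γδ T-like, 2 of 19 in B-like and 1 of 18 in monocyte-like cells. Of the mitochondrial ribosomal protein genes, 18 of 72, 24 of 73, 21 of 73 and 1 of 71 rose. In the same order, 9.05%, 12.5%, 10.2% and 3.31% of all genes tested rose. The biogenesis counts in B-like and monocyte-like cells were near that background. Among other genes, SPINK2, a protease inhibitor, rose most in RPL-high monocyte-like cells (4.85 ± 2.06 per 10000 in RPL-high, against 0.841 ± 0.470 in RPL-low cells, log2 fold change 2.45). The transcription factor gene ZEB2 fell in RPL-high αβ T-like cells (0.526 ± 0.599 per 10000, against 1.58 ± 0.563 in RPL-low cells, log2 fold change -1.82). It also fell in RPL-high γδ T-like cells (0.0686 ± 0.0401, against 0.383 ± 0.171, -1.47). The T cell gene BCL11B fell in RPL-high B-like cells (0.139 ± 0.0331, against 0.415 ± 0.0578, -1.11). The RPL-high levels of ZEB2 in γδ T-like and of BCL11B in B-like cells lie near the pseudocount of 0.1. The ZEB2 call was lost without library 1 in αβ T-like cells and without library 2 or library 3 in γδ T-like cells, and that of BCL11B without library 3. In B-like cells the TPT1 and RACK1 calls were lost without library 3, as they were in those of the monocyte-like group.

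The same lists were then read between cell groups. Of all genes tested, 12.9% rose and 21.9% fell in proliferating-like cells, and 11.4% rose and 30.7% fell in eosinophil-like cells. In thrombocyte-like cells 14.3% rose and 29.9% fell, and in monocyte-like cells 16.8% rose and 18.9% fell. In proliferating-like cells 13 of 18 translation partners rose, among them RACK1 with 11.7 ± 3.47 per 10000, against 3.72 ± 1.20 in αβ T-like cells (log2 fold change 1.63, SE 0.32, adjusted p = 0.000176 by limma). NPM1, a nucleolar chaperone of ribosome assembly, had a log2 fold change of 1.46 in proliferating-like cells. In eosinophil-like cells it was 0.0882 ± 0.0765 per 10000, against 3.69 ± 0.400 in αβ T-like cells (-4.43), and in thrombocyte-like cells the change was -3.85. Of the partners, 11 fell in eosinophil-like and 7 in thrombocyte-like cells, and 7 rose in monocyte-like cells, among them EEF2, the translocation factor (1.71), and RACK1 (1.09, higher in 2 of 3 libraries). Of the ribosome biogenesis genes, 5 of 18 fell in monocyte-like cells and none rose, among them MYC, a transcription factor of ribosome production (-3.60), and DKC1 of the pseudouridylation complex (-1.58). In eosinophil-like cells 15 of 18 fell, and in thrombocyte-like cells 9 of 19. In proliferating-like cells 4 of 18 rose, among them NCL (1.67) and NHP2 (2.17), and 2 fell, namely BOP1 (-1.63) and MYC (-3.24).

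Mitochondrial ribosomal protein genes, which build a separate ribosome, were read in the same way. In proliferating-like cells 26 of 73 rose, where 12.9% of all genes rose, with a median of 0.66, against 1.45 for the cytoplasmic members. In eosinophil-like cells 29 of 72 fell (median -0.99), where 30.7% of all genes fell with a median of -0.61. In thrombocyte-like cells 14 of 73 fell and 2 rose (median -0.43), where 29.9% of all genes fell with a median of -0.50. In monocyte-like cells 7 of 72 fell, where 18.9% of all genes fell. In cytolytic-like cells 1 of 73 fell, where 3.29% of all genes fell, and none was called in B-like, γδ T-like or SOX5 B-like cells. The difference between the lists was not tested.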

How the data were processed

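Single blood cells of laying hens were profiled by 10x Genomics 3′ chemistry (v3.1). Per the labels, the submitters' processing notes name Cell Ranger 1.2.0, Seurat and the genome build GRCg7b, and the study's methods name another version of Cell Ranger. The deposited matrix holds whole-number scores per gene and cell that the authors had corrected for depth, by all appearances, before deposit. They are not raw counts, so no count model was used. The study's methods describe removal of putative doublets and filters on mitochondrial share, genes per cell and globin values. The study counts 16936 cells past its final quality control, the same number as in the matrix. The deposited cells therefore appear to be those left after these steps. In the deposited values, mitochondrial genes still held over 20% of the total in 889 cells. Globin-rich cells were present too, and both stayed in. Doublets were not called again, and free RNA was not estimated.

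Libraries were told apart by barcode prefix, and each stands for 1 hen. A marker was detected at a value of 1 or more. A lineage needed 2 of its markers and at most 1 of each other lineage, red blood cell-like cells a summed globin value of 10, and proliferating-like cells 2 of their markers. T cell and cytolytic markers did not exclude each other. A cell with 2 cytolytic markers was placed as cytolytic-like whether or not it had T cell markers. Values were summed per group and library (at least 10 cells), set per 10000, and compared as log2(value + 0.1) with limma 3.58.1 in R 4.3.3 (trend in the prior spread), in 1 fit over the groups. Fold changes are on that log2 scale and understate changes of low genes. Genes were kept where either group averaged 0.05 per 10000 or more, Benjamini-Hochberg was applied over all of them, and the threshold was 0.05. All 72 members passed this filter in each comparison between groups. Tables were made with Python 3.11.15, numpy 2.4.6 and pandas 2.3.3. Each hen gave cells to both sides of every comparison, so library numbers pair the profiles. Deviations of the 2 profiles of a library correlated by 0.15 to 0.64 among lymphocyte groups, by 0.26 to 0.78 in the RPL splits, and by -0.31 to 0.06 in the comparisons of monocyte-like, thrombocyte-like, eosinophil-like and proliferating-like with αβ T-like cells.

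The members, the gene lists and the tests were chosen with earlier results of these data known. Named members are the 5 largest changes in each direction past the threshold and the same way in 3 libraries, on both scales, the 3 highest and lowest levels per group, paralogs and their partners, and listed partners. RPL37A in monocyte-like cells, RPL22L1 in SOX5 B-like cells, RPL23A in red blood cell-like cells and the members beside these whose rank is lower (such as RPS20 in eosinophil-like cells) were chosen after their values were seen. The tests were checked on simulated data, drawn independently for each gene and profile and with no effect of the hen. The check therefore cannot show how the tests behave where members, or the profiles of a hen, move together. Alternatives were other totals, another pseudocount, no filter, stricter markers, the hen as a block and leaving out each library. The fit of only the groups compared and the median-ratio scaling were chosen after seeing the data. The authors' own comparisons were not used. Some members and partners that meet the naming rule are not reported here by name.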

Additional observations from a re-analysis of the deposited data

Results flagged for a closer look

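The number of genes per cell differed between RPL-high and RPL-low cells in opposite directions in lymphocytes and in monocyte-like cells. This difference between groups was not tested. The median was 1104.5, 1229 and 1240.5 genes in RPL-high B-like cells of libraries 1, 2 and 3, against 943.5, 1018 and 971 in RPL-low ones, a mean difference of 214. In γδ T-like cells it was 1142, 1287 and 1394 in RPL-high cells, against 922, 1054 and 1061 in RPL-low ones (262), and in αβ T-like cells 1215, 1246 and 1307, against 983, 1062.5 and 1038.5 (228). In monocyte-like cells it was 1155.5, 1209 and 1216 in RPL-high cells, against 1164, 1254 and 1282.5 in RPL-low ones (-40). All 3 libraries of each lymphocyte group were higher in RPL-high cells, and all 3 monocyte-like libraries were lower. The monocyte-like difference was small in library 1, at -8.5 genes, against -45 in library 2 and -66.5 in library 3.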

How the results depend on the processing

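None of the 5 largest changes in each direction, past the threshold and the same way in 3 libraries, changed sign under any alternative run. This was partly set in advance. Leaving out a library could not turn a sign, since all 3 libraries went the same way. The hen as a block, no filter and the fit of only the groups compared leave the fold change itself as it was. Only the other alternatives could have turned a sign. Many of these results lost the call, however. Of these 98 results, 24, 24 and 40 were no longer past the threshold without library 1, 2 and 3. In fits of only the groups compared 10 lost it and 48 kept it. That check covered members between groups on both scales and genes other than members in the RPL splits. Partner and biogenesis genes named between groups, members of lower rank and RPS genes in the splits were not in it. The members' median turned to 0.13 in cytolytic-like cells without library 1 and 0.24 with no marker of another lineage. In monocyte-like cells it turned to -0.33 without library 2 and -0.17 with at least 3 markers. Among all genes, 990 higher and 1182 lower calls in monocyte-like cells on the family scale became 842 and 623 without library 2, 109 and 87 in cytolytic-like cells became 23 and 38 without library 1, and 235 and 181 in SOX5 B-like cells on the scale of the total became 141 and 175 with no marker of another lineage. Leaving out each library in turn gave 0 to 5 members called in B-like, 0 to 14 in monocyte-like, 9 to 41 in thrombocyte-like and 32 to 56 in eosinophil-like cells against αβ T-like cells. Departures from the family then numbered 3 to 8 in monocyte-like, 11 to 14 in thrombocyte-like, 15 to 20 in eosinophil-like and 1 to 4 in proliferating-like cells, and RPS genes called in RPL-high cells 10 to 27 in B-like and 5 to 27 in monocyte-like cells. In fits of only the groups compared, members called numbered 52 in B-like, 2 in γδ T-like, 1 in cytolytic-like, 8 in monocyte-like and 1 in SOX5 B-like cells, and departures 3, 1, 4 and 15 in B-like, γδ T-like, monocyte-like and eosinophil-like cells. The median ratio gave 7 in B-like, 35 in monocyte-like and 14 in thrombocyte-like cells. In B-like cells a pseudocount of 1, a total without mitochondrial values and a total without ribosomal protein and mitochondrial values each gave 6, at least 3 markers gave 0, and no marker of another lineage gave 1, as it did in monocyte-like cells. In SOX5 B-like cells 1 was called with a pseudocount of 1 and 1 with the replicate block. None of the 98 results checked for sign lost its call with that block. The share of the summed values was 4.88% in B-like, 4.37% in γδ T-like, 3.27% in αβ T-like, 3.00% in cytolytic-like, 2.67% in other T-like, 1.70% in eosinophil-like and 3.18% in ungrouped cells. Of values that are not mitochondrial, the B-like share was 4.46%. With at least 3 markers the share was 3.19% in αβ T-like, 4.34% in γδ T-like, 2.48% in other T-like and 1.19% in ungrouped cells. With no marker of another lineage it was 0.786% in eosinophil-like and 2.66% in ungrouped cells, and proliferating-like cells with at most 20% mitochondrial values had 11.5%. Thrombocyte-like cells with no marker of another lineage gave no comparison, as library 1 then held under 10 cells. The cause of these changes was not tested. Member counts under alternative settings mostly stand without the share of all genes called under the same setting. They describe how far the calls moved and are not results about the members. The precision is limited by 3 hens, by 14 to 32 proliferating-like cells per library, and by scores from which depth cannot be read.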
